A study of Mus musculus with 5 samples.

Results

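Regulatory T cells (Tregs) were picked out of a pool of sorted mouse immune cells by their RNA, and those that carried hashtags 1, 4 or 7 were set beside those that carried hashtags 2, 3, 5, 6, 8 or 9. A Treg was a cell with at least 200 genes detected and at most 20% mitochondrial counts that had at least 1 unique molecular identifier (UMI, 1 counted RNA molecule) of Foxp3 and at least 2 of Cd3e, Cd3d and Cd3g together. It could have at most 1 UMI of Cd8a and Cd8b1 together and at most 1 of Cd79a. This rule took 368 of the 21531 cells that passed the filters. Of these, 362 could be given a hashtag, by a top tag with at least 3-fold more counts than any other tag, 107 of them hashtags 1, 4 and 7 and 255 the other 6.

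The pool held live CD45+ cells, which are leukocytes, from the tumour, the draining lymph node (dLN) and a non-draining lymph node (non-dLN) of 3 mice. Mouse 1 received nivolumab_mIgG1_D265A, mouse 2 nivolumab_mIgG1 and mouse 3 the isotype control MOPC21. Nivolumab is an antibody that blocks human PD-1, and D265A is an exchange in the antibody's constant part. The labels and the design text state no strain, age or tumour line. The series' design numbers its samples 1 to 9, with tumours as samples 1, 4 and 7, but no label says that hashtag numbers follow sample numbers. The 9 populations were therefore called by hashtag number only and left unassigned to a mouse, site or antibody. Each antibody was given to 1 mouse, and no test was run. The grouping of hashtags 1, 4 and 7 was chosen with earlier results of these data known, so every difference below is a description. Intervals are 95%, exact Poisson for levels, exact conditional binomial for ratios and exact Clopper-Pearson for shares, and cover counting error only.

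Tregs are CD4 T cells that restrain immune responses, and the transcription factor Foxp3 maintains their identity. Resting Tregs circulate through lymphoid tissue and carry the homing receptors and transcription factors of naive T cells. Effector Tregs in tissues and tumours carry more receptors of the tumour necrosis factor (TNF) family, more inhibitory receptors and more of the molecules through which Tregs suppress other cells.

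Hashtags are antibodies to surface proteins of all leukocytes, each joined to a DNA tag that is counted with the cell's RNA. The tags of the 3 hashtags set apart here are shown since they alone say which cells belong together. The capitals mark the whole tag, written 5′ to 3′.
Hashtag 1: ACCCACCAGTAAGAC
Hashtag 4: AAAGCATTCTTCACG
Hashtag 7: GAGTCTGCCAGTATC
Any 2 of the 9 tags differed at 7 or more of their 15 positions. In the Tregs with a hashtag, the top tag outnumbered the runner-up by a median factor of 66.3. Each hashtag held 2056 to 2581 cells in all, with medians of 3377 to 10660 UMIs per cell.

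The selected cells carried the Treg markers that the rule did not use. Ikzf2, which encodes the Treg-enriched transcription factor Helios, was at 909 CPM (counts scaled to a total of 1000000) in the 191 cells with exactly 1 Foxp3 UMI and at 113 CPM in the 4320 cells that met every other condition but had no Foxp3. Il2ra, the high-affinity chain of the interleukin-2 receptor, was at 521 CPM against 31.0 CPM, and Tnfrsf18, which encodes GITR, at 602 CPM against 104 CPM. Ctla4, an inhibitory receptor of Tregs, was at 1289 CPM against 199 CPM. All 4 genes were thus at higher summed levels just inside the Foxp3 limit than just outside it. Cells with 1 Foxp3 UMI made up 51.9% of the Tregs, and the highest count in a cell was 9. Just outside the CD3 limit lay 24 cells with a CD3 sum of 1, in which the macrophage gene C1qb was at 5495 CPM, against 178 CPM in the 24 cells with a sum of 2. A further 56 cells had a CD3 sum of 0, 42 of them in hashtags 1, 4 and 7 and 14 in the others, with C1qb at 5568 CPM. Of cells that failed on another limit alone, 12 had a CD8 sum of 2 and 15 had 2 or more Cd79a UMIs. Another 50 had a CD8 sum over 2, 21 of them in hashtags 1, 4 and 7 and 28 in the others.

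Tregs were a small part of all cells in every population. Set beside Foxp3-negative T cells with at most 1 CD8 UMI, their share was higher in hashtags 1, 4 and 7 than in the others, by an amount that depended on whether a Cd4 UMI was required. They made up 2.38% of the cells of hashtag 1 (49 cells, interval 1.77 to 3.14%), 1.69% of hashtag 4 (39 cells, 1.21 to 2.31%) and 0.770% of hashtag 7 (19 cells, 0.464 to 1.20%). In the other 6 the share ran from 1.26 to 2.16% with a median of 1.88%, so the groups overlapped. Foxp3-negative CD4 T cells were defined by no Foxp3 UMI, a CD3 sum of at least 2, at least 1 Cd4 UMI and the same CD8 and Cd79a limits. They numbered 36, 34 and 23 in hashtags 1, 4 and 7 and 216 to 408 in the others. Of Tregs and these cells together, Tregs were 57.6% in hashtag 1 (46.5 to 68.3%), 53.4% in hashtag 4 (41.4 to 65.2%) and 45.2% in hashtag 7 (29.8 to 61.3%). The other 6 lay between 8.31 and 15.2%, with no overlap. With every cell thinned to 1500 UMIs before the rule was applied, the shares were 42.9 to 57.5% against 6.45 to 19.0%. These shares require a Cd4 UMI of the Foxp3-negative cells but not of the Tregs, so equal conditions were tried after seeing the data. With no Cd4 UMI required of either, the share was 20.7% in hashtag 1 (15.7 to 26.4%), 16.7% in hashtag 4 (12.1 to 22.1%) and 14.2% in hashtag 7 (8.76 to 21.3%), against 4.73 to 8.36% in the others. With a Cd4 UMI required of both, it was 52.6, 42.4 and 34.3% against 5.56 to 11.6%. The groups did not overlap under either condition, though the interval of hashtag 7 overlapped with those of hashtags 2, 5 and 8 with no Cd4 UMI required. With every cell thinned to 1500 UMIs and no Cd4 UMI required, the shares were 9.88, 10.7 and 9% against 1.47 to 4.21%. With thinning and a Cd4 UMI required of both, they were 38.9, 26.1 and 20% against 1.14 to 8.74%. Hashtag 7 then rested on 3 Tregs (4.33 to 48.1%), and its interval overlapped with those of other hashtags.

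**Figure D1:**
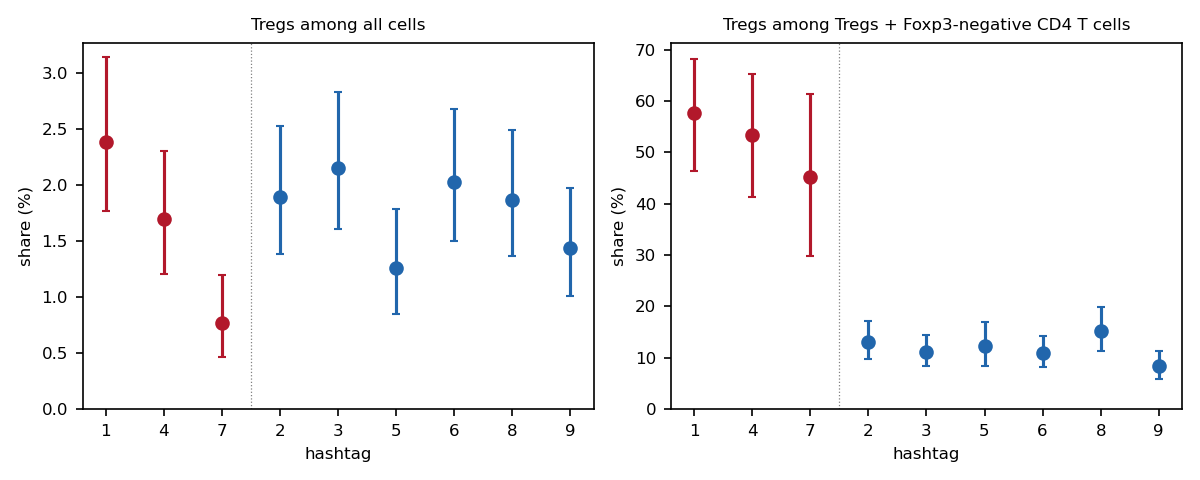
Share of Tregs among all cells of a hashtag (left, %) and among Tregs plus Foxp3-negative CD4 T cells (right, %, a Cd4 UMI required of the latter only), by hashtag. Points are shares, bars exact 95% Clopper-Pearson intervals, red hashtags 1, 4 and 7 and blue the other 6; on the right the red points lie at 45.2 to 57.6% and the blue ones at 8.31 to 15.2%.

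UMIs were then summed over the Tregs of each hashtag and scaled to CPM. The sums held 241374, 206977 and 171492 UMIs in hashtags 1, 4 and 7 and 246244 to 424256 in the others. A gene was read where its mean CPM over the 9 hashtags was at least 20. It was called higher where the lowest of hashtags 1, 4 and 7 lay above the highest of the other 6 and the ratio of the 2 medians was at least 2, and lower in the reverse case with a ratio of at most 0.5. Of 6507 genes read, 387 were higher, which is 5.95%, and 318 were lower, which is 4.89%. By at least 4-fold, 136 were higher and 69 lower, and the median log2 ratio over all genes read was -0.04. For 86 of the higher and 39 of the lower genes the Poisson intervals of hashtags 1, 4 and 7 also lay apart from those of all the others. With each Treg thinned to 1500 UMIs before summing, 258 were higher and 139 lower. Without the Tregs that carried over 2 UMIs of markers of other cell types (described below), 404 were higher and 217 lower. The counts and medians of the gene lists below are to be read against these shares.

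**Figure D2:**
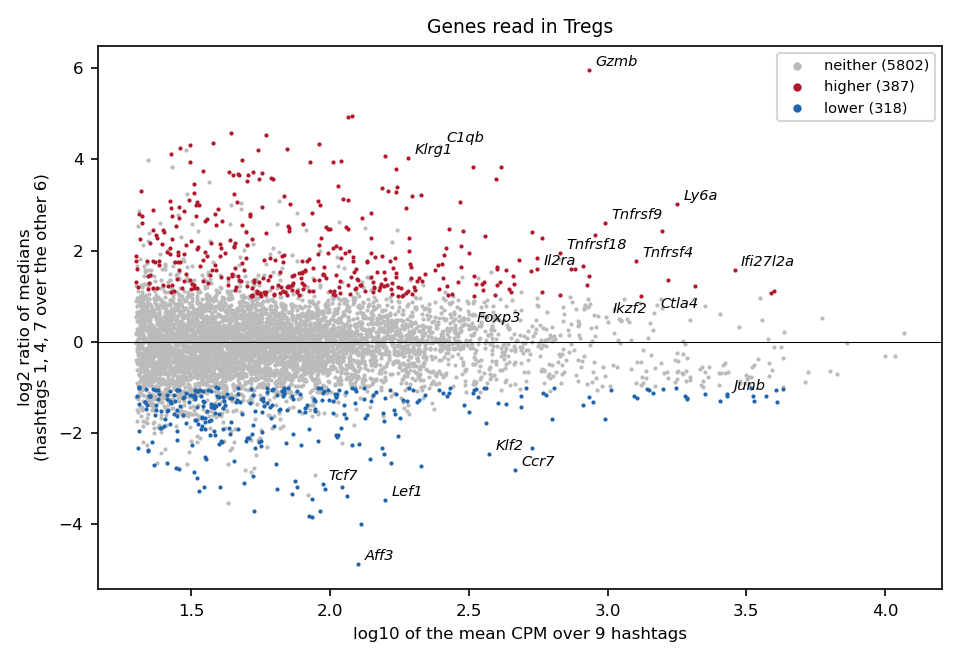
Log2 ratio of medians (hashtags 1, 4 and 7 over the other 6) against the log10 of the mean CPM, for the 6507 genes read in Tregs. Each point is a gene, with 387 called higher in red, 318 lower in blue and the rest in grey; Gzmb stands at the top with a log2 ratio of 5.96 and Aff3 at the bottom with -4.88.

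Molecules through which Tregs suppress or kill other cells were the list with the largest share of higher genes among the functional lists. Of 12 such genes, 10 were read and 8 were higher (Gzmb, Prf1, Il10, Ebi3, Entpd1, Fgl2, Lag3 and Itgb8), none was lower, and the median log2 ratio was 3.10. Gzmb (ENSMUSG00000015437, chr14:56258838-56262260, minus strand, GRCm38) encodes the protease granzyme B of cytotoxic granules. Its Treg level was 1023 CPM in hashtag 1 (interval 900 to 1159), 2875 in hashtag 4 (2648 to 3115) and 3207 in hashtag 7 (2945 to 3487). The other 6 ran from 16.2 to 275 CPM with a median of 46.2, and hashtags 5 and 8 were the highest among them. The ratio of medians was 62.2, the largest of all genes read, while the ratio of the summed counts was 20.9 (18.0 to 24.4). Gzmb was spread over many cells in the 3 populations, with at least 1 UMI in 33 of 49, 31 of 39 and 18 of 19 Tregs. In hashtags 5 and 8 it was found in 8 of 30 and 10 of 45, and 1 cell held 50% and 34.5% of its UMIs. At a depth of 1500 UMIs, the share of Tregs with a Gzmb UMI would be 51.7, 71.5 and 78.2% in hashtags 1, 4 and 7 and 2.59 to 18.3% in the others. In macrophages of hashtags 1, 4 and 7, which should lack the gene, it would be 1.27% (median depth 14919 UMIs), and in B cells of the other 6 hashtags 3.4% (3037 UMIs).

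Il10 and Ebi3, cytokine genes of the list, were higher too. Il10, which encodes the suppressive cytokine interleukin-10, was at 215, 169 and 204 CPM in hashtags 1, 4 and 7 and at 18.9 to 90.7 CPM in the others (median 36.5). Ebi3 encodes a subunit of interleukin-35 and interleukin-27, and its level was 186, 164 and 122 CPM against 8.99 to 47.1 CPM (median 17.8), a 9.22-fold difference of medians. Il12a, whose product pairs with that of Ebi3 in interleukin-35, had no UMI in the Tregs of any hashtag. Itgb8, whose product takes part in activating transforming growth factor beta, was 4.33-fold higher. Tgfb1, the cytokine itself, was neither higher nor lower, at 203, 227 and 350 CPM against 172 to 264 CPM.

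The 2 enzymes of extracellular adenosine production did not move together. Entpd1 encodes CD39, which degrades extracellular ATP, and its level was 290, 271 and 251 CPM in hashtags 1, 4 and 7 against 18.0 to 42.9 CPM (median 31.0), 8.72-fold higher. Nt5e encodes CD73, which makes adenosine from AMP, and overlapped between the groups with 141, 62.8 and 23.3 CPM against 47.1 to 122 CPM. Lag3, an inhibitory receptor that binds MHC class II, was at 704, 391 and 251 CPM against 14.1 to 56.7 CPM, 10.5-fold higher. Fgl2, a secreted suppressive protein, was 8.67-fold and Prf1, the pore-forming perforin, 8.51-fold higher, the latter on 43 UMIs against 9 in all (ratio of sums 13.8, interval 6.65 to 32.3).

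Tregs of hashtags 1, 4 and 7 also carried more RNA of genes known from effector and tissue Tregs. Of 22 such genes, 20 were read, 8 were higher (Ccr8, Klrg1, Il1r2, Areg, Maf, Hif1a, S100a4 and Glrx) and none lower, with a median log2 ratio of 0.88. Klrg1 (ENSMUSG00000030114, chr6:122270596-122282882, minus strand, GRCm38), an inhibitory receptor of differentiated T and NK cells, was at 311, 425 and 787 CPM against 4.06 to 94.3 CPM (median 26.0), 16.3-fold higher. All 3 populations lay well above the others, of which hashtag 8 was the highest with 40 UMIs in 3 cells. At 1500 UMIs, 34.9, 38.7 and 56.2% of Tregs would show Klrg1, against 0.216 to 4.15% in the other hashtags and 0.0695% of macrophages. Ccr8, a chemokine receptor of Tregs in skin and tumours, was at 534, 676 and 432 CPM against 91.9 to 223 CPM (median 171), 3.12-fold higher. It was read in every other population too, down to 91.9 CPM in hashtag 8.

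Decoy and repair genes belonged to the same group. Il1r2, a decoy receptor for interleukin-1, was at 302, 261 and 245 CPM against 0 to 110 CPM, 3.42-fold higher. Areg, the tissue repair factor amphiregulin, was at 489, 1116 and 286 CPM against 83.1 to 284 CPM, and hashtag 7 stood only just above hashtag 5. Hif1a, which encodes the oxygen-regulated transcription factor HIF-1 alpha, was at 758, 903 and 723 CPM against 246 to 353 CPM. Glrx, which encodes the redox enzyme glutaredoxin, showed the largest fold of the group after Klrg1, 4.86, with 1094, 1102 and 1714 CPM against 86.9 to 354 CPM. Not every effector gene followed. Batf, a transcription factor of effector Tregs, was at 236, 126 and 181 CPM against 117 to 231 CPM. Icos, a costimulatory receptor, lay above the others without reaching a 2-fold ratio, with 1168, 1754 and 1120 CPM against 270 to 940 CPM. Prdm1, which encodes the transcription factor Blimp-1, had a ratio of 2.76 but overlapped, with hashtag 4 at 106 and hashtag 5 at 117 CPM.

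Genes of resting and central Tregs showed the reverse. Of 18, 16 were read, 10 were lower (Ccr7, Lef1, Tcf7, Klf2, S1pr1, Bach2, Bcl2, Igfbp4, Foxo1 and Klf3) and 1, Il7r, was higher, with a median log2 ratio of -2.40. Tcf7 (ENSMUSG00000000782, chr11:52252371-52283014, minus strand, GRCm38) encodes TCF-1, a transcription factor of naive and memory T cells. It had 0 UMIs in the Tregs of hashtags 1, 4 and 7 and 251 UMIs in the others, where it stood at 99.0 to 213 CPM (median 127). With each 0 set at a floor of 3 UMIs, Tcf7 was 8.73-fold lower. By the ratio of sums, the interval began at 23.3-fold lower. Its partner Lef1 (ENSMUSG00000027985, chr3:131110471-131224356, plus strand, GRCm38) was at 49.7, 19.3 and 11.7 CPM against 142 to 313 CPM (median 215), 11.1-fold lower.

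Lymph node homing and recirculation genes followed Tcf7 and Lef1. Ccr7, the receptor that guides T cells into lymph nodes, was at 78.7, 164 and 29.2 CPM against 381 to 1246 CPM (median 553), 7.02-fold lower. S1pr1, the receptor for exit from lymphoid tissue, was at 16.6, 14.5 and 5.83 CPM against 108 to 167 CPM, and Klf2, the transcription factor that drives it, at 78.7, 96.6 and 128 CPM against 316 to 682 CPM. Every one of these values in hashtags 1, 4 and 7 lay below the lowest of the other 6. Bach2, a repressor that holds T cells in a less differentiated state, was at 33.1, 38.7 and 23.3 CPM against 126 to 344 CPM, 6.34-fold lower. Bcl2, a survival factor, was 14.0-fold lower on 5 UMIs against 218 (ratio of sums 15.1-fold lower, interval 6.35 to 46.8).

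Some receptors of resting T cells did not follow. Cd27, a costimulatory receptor, overlapped, with 539, 217 and 163 CPM against 141 to 305 CPM. Il7r, the receptor for the survival cytokine interleukin-7, ran against the rest of its list with 253, 411 and 187 CPM against 59.9 to 183 CPM, a ratio of 2.02. The gap was narrow, with hashtag 7 at 187 and hashtag 6 at 183 CPM.

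**Figure D3:**
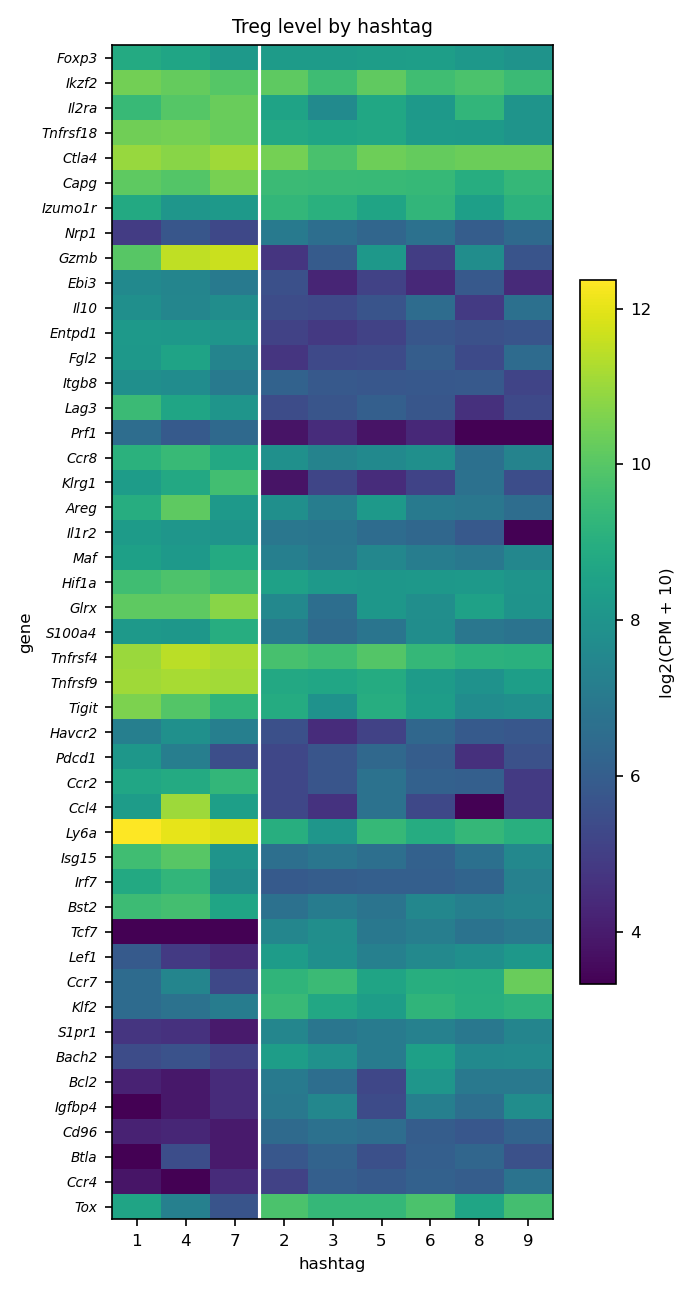
Treg level of 47 named genes (rows) in each hashtag (columns, with 1, 4 and 7 left of the white line), as log2(CPM + 10) of the UMIs summed over the Tregs of a hashtag. Foxp3 overlaps between the groups, the block from Gzmb to Prf1 is brighter on the left, and the block from Tcf7 to Igfbp4 is darker on the left.

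The effector and resting lists were also read within single Tregs. Each Treg was thinned to 1500 UMIs, which left out 9 shallower cells, and the UMIs of the effector and resting lists were counted in it. The median Treg held 14, 18 and 20 UMIs of the effector list in hashtags 1, 4 and 7 and 4 to 9.5 in the others. It held 2 UMIs of the resting list in each of hashtags 1, 4 and 7 and 3.5 to 7 in the others. More effector than resting UMIs were found in 97.9% (47 of 48), 94.7% (36 of 38) and 100% (19 of 19) of Tregs of hashtags 1, 4 and 7. In the other populations this share was 37.1 to 66.7%, highest in hashtag 5, where the effector median was also the highest of the 6. Single cells overlapped between the groups on both lists, and Tregs with over 20 effector UMIs were also found in hashtags 3 and 9.

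**Figure D4:**
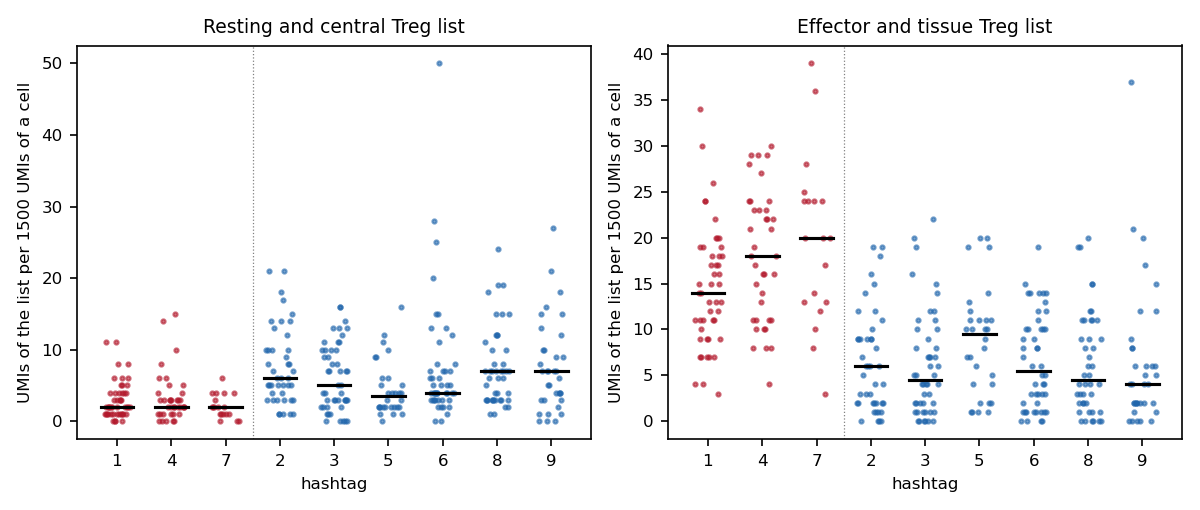
UMIs of the resting and central Treg list (left) and of the effector and tissue Treg list (right) per Treg thinned to 1500 UMIs, by hashtag. Each point is a cell, black lines are medians, red is hashtags 1, 4 and 7 and blue the other 6; the red medians are 2 on the left and 14, 18 and 20 on the right.

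The Treg identity genes together were at 7619 to 8240 CPM in hashtags 1, 4 and 7 and at 4207 to 5572 CPM in the others, with no overlap. Of 12, 11 were read, 2 were higher (Il2ra and Tnfrsf18), 1 was lower (Nrp1) and the median log2 ratio was 0.54. At a limit of 1.5-fold, 4 were higher and 1 lower. Foxp3 (ENSMUSG00000039521, chrX:7573644-7595245, plus strand, GRCm38), whose detection chose the cells, was at 447, 387 and 280 CPM against 242 to 329 CPM. Ikzf2 was at 1396, 1198 and 991 CPM against 714 to 1126 CPM, and Ctla4 lay above the others without a 2-fold ratio, at 2009, 1701 and 2128 CPM against 869 to 1425 CPM. Il2ra was at 675, 990 and 1242 CPM against 192 to 606 CPM (median 328), 3.02-fold higher, and Tnfrsf18 at 1342, 1396 and 1225 CPM against 249 to 430 CPM (median 347), 3.87-fold higher. Nrp1 encodes neuropilin-1, a surface receptor often used to mark Tregs of thymic origin. It was at 20.7, 43.5 and 29.2 CPM against 54.2 to 122 CPM, 2.79-fold lower, on 19 UMIs against 145. Nrp1 lost this call in 5 of 26 alternative settings. Among them were a minimum of 2 Foxp3 UMIs, the rule applied to thinned cells, thinned sums and intervals that had to lie apart.

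Pdcd1, the mouse gene of the inhibitory receptor PD-1, did not meet the call. Its Treg level was 265 CPM in hashtag 1 (interval 204 to 339), 135 in hashtag 4 (89.9 to 196) and 35.0 in hashtag 7 (12.8 to 76.2), against 14.1 to 72.9 CPM in the others (median 39.9). Hashtags 1 and 4 thus lay above the 6 and hashtag 7 among them, where the count was 6 UMIs in 5 of 19 Tregs. At 1500 UMIs the share of Tregs with a Pdcd1 UMI would be 29.6, 17.6 and 5.65% against 2.11 to 13.1%. Of 10 inhibitory receptor genes read, 3 were higher (Tigit, Havcr2 and Lag3) and 2 lower (Btla and Cd96), with a median log2 ratio of 0.76. Tigit, an inhibitory receptor of Tregs and exhausted T cells, was at 1529, 981 and 589 CPM against 200 to 486 CPM. Havcr2, which encodes TIM-3, was at 141, 222 and 140 CPM against 12 to 71.6 CPM. Cd96, whose product competes with that of Tigit for a ligand, was at 8.29, 9.66 and 5.83 CPM against 44.8 to 92.9 CPM, in the opposite direction to Tigit.

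Receptors of the TNF family that costimulate Tregs were among the genes whose intervals lay apart. Tnfrsf9 (ENSMUSG00000028965, chr4:150914562-150946102, plus strand, GRCm38) encodes 4-1BB, an activation-induced receptor. It was at 2146, 2290 and 2210 CPM in hashtags 1, 4 and 7 (intervals 1965 to 2339, 2089 to 2506 and 1993 to 2444), and at 236 to 466 CPM in the others (median 365), 6.05-fold higher. At 1500 UMIs, 83.8, 84.6 and 86.5% of Tregs would show it, against 27.2 to 45.0% in the others and 1.5% of macrophages. Tnfrsf4, which encodes OX40, was at 2026, 2735 and 2379 CPM against 529 to 984 CPM, 3.43-fold higher. Among the ligand genes, Tnf was higher and 2 others were lower. Tnfsf8, the ligand of CD30, had 0 UMIs in all 3 populations and was 3.47-fold lower with each 0 set at a floor of 3 UMIs. The interval of its ratio of sums began at 7.88-fold lower. Cd40lg, the helper signal to B cells, had 3 UMIs against 90. Of the 11 genes of this list read, 3 were higher (Tnfrsf4, Tnfrsf9 and Tnf) and 2 lower, with a median log2 ratio of 0.45, or -0.022 without Tregs that had a UMI of Mki67 or Top2a.

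Chemokine receptor genes were called in both directions. Ccr2, a receptor for inflammatory chemokines, was at 394, 449 and 624 CPM against 18.9 to 97.2 CPM. Ccr4, a receptor for homing to skin and to dendritic cells, was lower, with 3 UMIs against 103. Ccl3, Ccl4 and Ccl5, which encode inflammatory chemokines, were higher, and their levels were uneven between cells. Ccl4 was at 307, 2111 and 338 CPM against 0 to 97.2 CPM, and in hashtag 4 its top 3 cells held 74.8% of the UMIs. Ccl5 was at 862, 1725 and 367 CPM against 49.5 to 243 CPM, with 50.7% of the UMIs of hashtag 4 in 1 cell. Ccl3 in hashtag 4 had 77.7% of its UMIs in 1 cell. In macrophages of hashtags 1, 4 and 7, thinned to 1500 UMIs, 34.2% would show Ccl4, so it was also present in other cells of these populations. Of 13 genes of the chemokine list read, 5 were higher and 1 lower, with a median log2 ratio of 0.98.

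Interferon response genes were higher as a group, though not all of them. All 15 in the table were read, 9 were higher (among them Isg15, Isg20, Ifit1, Irf7, Gbp4, Bst2, Ly6a and Ifi27l2a) and none lower, with a median log2 ratio of 1.59. Ly6a (ENSMUSG00000075602, chr15:74994877-74998031, minus strand, GRCm38), which encodes Sca-1, an interferon-induced surface protein of activated T cells, was at 5266, 4121 and 3644 CPM against 261 to 656 CPM (median 505), 8.17-fold higher. At 1500 UMIs, 95.9, 96.4 and 94.5% of Tregs would show Ly6a, against 27.2 to 43.4% in the others, and 86.8% of macrophages of hashtags 1, 4 and 7. Isg15, a ubiquitin-like antiviral protein, was at 758, 1015 and 245 CPM against 60.8 to 178 CPM, and Irf7, a transcription factor of the interferon response, at 439, 614 and 204 CPM against 48.7 to 147 CPM. In both, hashtag 7 was the lowest of the 3. Irf1, an early interferon target, overlapped with 389, 594 and 373 CPM against 351 to 449 CPM. Ly6a, Ifi27l2a, Gbp4, Lilrb4a and Phf11a belong to families of near-identical copies, between which reads may be split, so their levels are uncertain.

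Metabolic and stress genes were called in part. Of 17 glycolysis and hypoxia genes read, 3 were higher: Aldoa, an enzyme of glycolysis, at 1334, 1019 and 2280 CPM against 365 to 595 CPM, Slc2a1, the glucose transporter GLUT1, and Bnip3, a mitochondrial protein induced by low oxygen. None was lower, and the median log2 ratio was 0.49. The count depended on the setting. It was 8 of 18 as a mean of per-cell CPM (median 1.06) and 5 of 18 with thinned sums (0.78). Without Tregs that had a UMI of Mki67 or Top2a it was 6 of 18 (1.16). It fell to 2 of 18 without cells of over 2 UMIs of other cell types (0.54), and to 1 of 17 where 95% intervals had to lie apart. Hashtag 7 was the highest of the 9 in Gapdh, with 6811 CPM against 3169 to 4097 CPM in hashtags 1 and 4 and 2219 to 3972 CPM in the others, and likewise in Ldha and Pgk1. Of 15 metallothionein and stress genes read, 2 were higher and 2 lower, with a median log2 ratio of 0.01. Mt1, a metal-binding protein, was at 381, 237 and 227 CPM against 3.00 to 80.1 CPM, and Ddit4, an inhibitor of mTOR signalling, at 402, 362 and 332 CPM against 32.5 to 101 CPM. Junb, a transcription factor of activated T cells, was lower, at 1388, 1826 and 1615 CPM against 2369 to 3751 CPM. The heat shock gene Hspa1a, often induced by tissue handling, had UMIs in hashtag 3 alone.

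Genes of dividing cells were not higher. Of 19 read, none was higher and 4 were lower (Rrm2, Birc5, Hmgb2 and Tubb5), with a median log2 ratio of -1.39. None of the 4 was lower without cells of over 2 UMIs of other cell types (median -1.27), as a mean of per-cell CPM (-0.92), with the rule applied to thinned cells (-0.13), with thinned sums (-0.54) or where 95% intervals had to lie apart. Hmgb2 reversed without Tregs that had a UMI of Mki67 or Top2a, to a log2 ratio of 0.020, and where the rule was applied to thinned cells, to 0.92. Mki67, which marks dividing cells, was at 137, 140 and 117 CPM against 140 to 613 CPM, and its high values were those of hashtags 5 (543 CPM) and 8 (613 CPM). In hashtag 8, 1 cell held 49.2% of the Mki67 UMIs. Of 12 genes of the T cell receptor response read, none was higher and Tox, a nuclear factor of persistently stimulated T cells, was lower, at 377, 145 and 40.8 CPM against 389 to 877 CPM. Tox lost this call without cells of over 2 UMIs of other cell types and with the rule applied to thinned cells. It also lost it where 95% intervals had to lie apart. Nr4a1, an immediate reporter of receptor signalling, overlapped with 418, 338 and 181 CPM against 207 to 612 CPM. Of 18 adhesion and cytoskeleton genes, all read, 4 were higher and none lower. They were Icam1 and Cd2, adhesion molecules of cell contacts, Anxa2, which binds membranes and actin, and Ahnak, a large scaffold protein. Ezr and Msn, the linkers between actin and membrane that build microvilli, overlapped at 257 to 324 CPM against 288 to 370 CPM and at 580 to 671 CPM against 504 to 616 CPM.

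**Figure D5:**
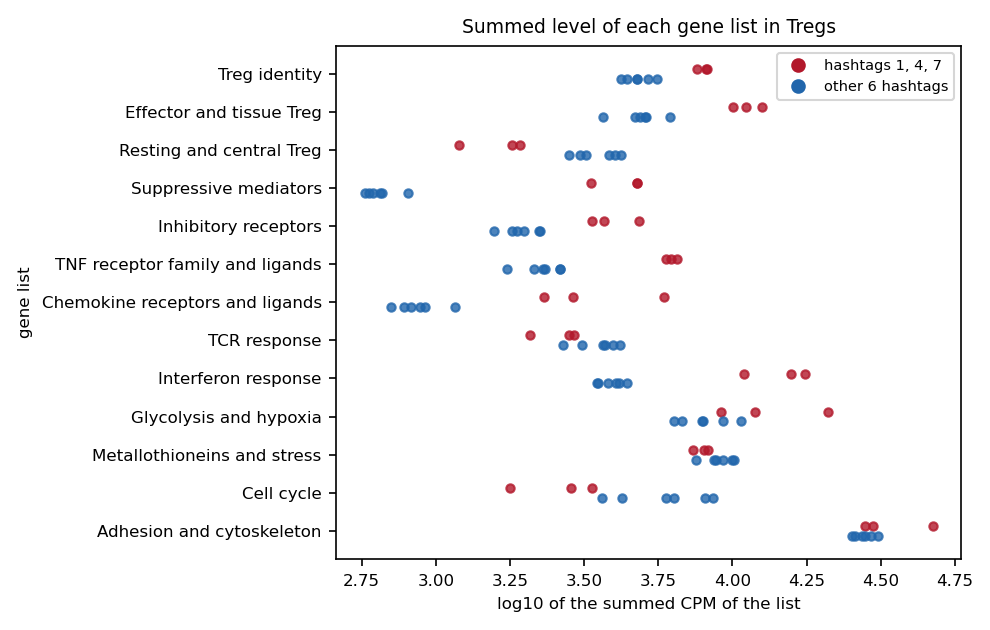
Log10 of the summed CPM of each gene list (rows) in the Tregs of each hashtag; each point is a hashtag, red for 1, 4 and 7 and blue for the other 6. The suppressive list runs from 3348 to 4778 CPM in red and from 575 to 806 CPM in blue, and the resting list from 1201 to 1918 CPM in red and from 2803 to 4223 CPM in blue.

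Beyond the lists, the genes with the largest folds included several with no common role. After Gzmb came Plac8 (30.8-fold), a cysteine-rich protein of leukocytes, Frmd5 (30.7-fold), a protein with a FERM domain, Alox5ap (23.9-fold), which serves leukotriene synthesis, and Lilrb4a (23.0-fold), an inhibitory receptor better known from myeloid cells. Alox5ap was 2.26-fold and not called without cells of over 2 UMIs of other cell types. The medians of the other 6 hashtags rest on few UMIs in these genes: Frmd5 had 210 UMIs against 11, a ratio of sums of 55.3 (30.3 to 112). Tbx21, which encodes T-bet, the transcription factor of type 1 immunity, was at 141, 116 and 175 CPM against 3.00 to 20.3 CPM. At the other end, Aff3 (ENSMUSG00000037138, chr1:38177326-38664955, minus strand, GRCm38), a nuclear protein of lymphocytes, was at 0, 4.83 and 5.83 CPM against 89.1 to 296 CPM. It had 2 UMIs against 338, so that the sums differed 58.3-fold with an interval of 16.0 to 484. Hmgn1, a nucleosome-binding protein, had 9 UMIs against 347 (13.3-fold lower, 6.93 to 29.4), and Rasgrp2, an activator of integrin adhesion, 5 against 233 (16.1-fold lower, 6.80 to 50).

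RNA of other cell types was present in some Tregs and moved with the myeloid genes among the calls. Of 15 macrophage and monocyte markers, 11 were read and 8 of these were higher, at a median log2 ratio of 3.41. Their summed level was 920, 5890 and 3545 CPM in hashtags 1, 4 and 7 and 262 to 536 CPM in the others. A few cells held most of it, since 1 cell had 70.0% of the C1qb UMIs of hashtag 4 and 1 cell had 97.3% of those of hashtag 7. Cells with over 2 UMIs of B cell and of macrophage and monocyte markers together (leaving out Cst3, Fcer1g and Tyrobp, which are less specific) were 24.5, 28.2 and 31.6% of the Tregs of hashtags 1, 4 and 7. They were 16.7 to 27.0% in the others, but the highest count in a cell was 47, 473 and 384 in the 3 and 6 to 46 in the 6.

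All cells of over 2 such UMIs were then left out. This removes most UMIs of the filtering markers by construction, so their own calls are not read here. Of the 3 markers the filter did not use, Cst3 was still higher, and Fcer1g and Tyrobp were not. Gzmb kept a ratio of 67.5, Klrg1 of 26.3, Tnfrsf9 of 7.56 and Ly6a of 8.23, and all 8 suppressive genes were still higher. Of the 10 resting genes that were lower, 9 were still lower. Alox5ap, Ccl3 and Spi1 were among the 15 largest folds and were no longer higher, and neither were Ccl4, Areg, Il7r, Ifit1, Tnf and Slc2a1. Over all genes, 280 of the 387 higher and 147 of the 318 lower were called again in these fewer cells.

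Markers of other cell types were mostly not read. None of the 7 B cell markers in the table was read, and their summed level was 20.7 to 40.8 CPM against 16.2 to 114 CPM. Of 10 CD8 T and NK cell markers, Nkg7 and Ccl5 were read and higher, while Klrb1c and Klre1, receptors of NK cells, were at 0 in the Tregs of every hashtag, and Ncr1, another, in those of hashtags 1, 4 and 7. Nkg7, a protein of cytotoxic granules, was at 1835, 778 and 566 CPM against 32.4 to 179 CPM. Klrd1, not read, had 11 UMIs against 11, a ratio of sums of 2.90 (1.14 to 7.37). Eomes had 0 against 2 and Gzmk 0 against 5, and Cd8a and Cd8b1 were limited by the rule. Of 10 dendritic cell markers, H2-Ab1 and Cd74, which serve antigen presentation, were read and neither was called. The list's summed level was 1189, 9967 and 1230 CPM in hashtags 1, 4 and 7 and 391 to 835 CPM in the others, with no overlap. Over all Tregs of each group, H2-Ab1 was 7.24-fold higher (5.93 to 8.89) and Cd74 6.39-fold (5.92 to 6.89), and in hashtag 4 the level of Cd74 was 8383 CPM with 59.4% of its UMIs in 1 cell. Clec9a, Ccl22 and Siglech were at 0. Cd209a had 17 UMIs, all in hashtag 4, against 0, and Zbtb46, a transcription factor of dendritic cells, 19 UMIs, found in each of the 3 hashtags, against 1. Of 12 tumour and stroma markers, 6 were at 0 and 1 was read. Of 10 helper CD4 markers 4 were read, Tbx21 was higher and Cd40lg lower, and Il2, Il4 and Il17a had no UMI. The part of any of these cells in the gene calls was not tested beyond the values given.

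The same hashtags were then read in Foxp3-negative CD4 T cells without cells of over 2 UMIs of those markers. This left 20, 21 and 11 cells in hashtags 1, 4 and 7, with 48618 to 82457 UMIs, and 171 to 338 cells in the others, with 881536 to 1520688 UMIs. Of 6143 genes read, 547 were higher (8.9%) and 188 lower (3.06%). Their levels of some Treg genes are set beside those above, which are of all Tregs, without leaving out such cells. Gzmb was at 307, 1261 and 1563 CPM against 13.2 to 31.8 CPM, Ly6a at 2844, 2607 and 2468 CPM against 236 to 422 CPM, and Tnfrsf9 at 1480, 1201 and 494 CPM against 39.7 to 69.2 CPM. Ccr7 was 4.91-fold and Tcf7 3.30-fold lower, and Tcf7 was present, at 192, 72.8 and 144 CPM, where Tregs had no UMI.

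Some values differed between the 2 classes, in genes chosen after their values were seen and without a test of the difference. The Treg values here are also of all Tregs, so the 2 classes differ in that filter too. Nrp1, lower in Tregs, was at 115, 72.8 and 82.3 CPM against 14.0 to 38.8 CPM in the Foxp3-negative cells, a 3.68-fold higher median. Il7r was 2.02-fold higher in all Tregs, a call lost when they were filtered likewise, and at a ratio of 0.944 in the other cells. Aff3 and Hmgn1, 29.5-fold and 15.9-fold lower in Tregs, were 1.85-fold and 1.91-fold lower there. The Foxp3-negative cells of hashtags 1, 4 and 7 also carried Ikzf2 at 1076, 497 and 329 CPM against a lowest of 43.2 and, in hashtag 5, a highest of 124.8 CPM, and Tnfrsf18 at 942, 534 and 1008 CPM against 75.8 to 101 CPM. A Treg whose Foxp3 RNA was missed would fall into this class, and how many did was not tested.

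Depth and RNA measures differed between the groups in part. The median Treg held 3686, 4038 and 8555 UMIs in hashtags 1, 4 and 7 and 4295 to 5510.5 in the others, so hashtag 7 was the deepest and hashtags 1 and 4 the shallowest. The median mitochondrial share of a Treg was 0.665, 0.686 and 0.760% in hashtags 1, 4 and 7 and 1.31 to 1.43% in the others, with no overlap. Hashtag 7 held 19 Tregs, so its values rest on the fewest cells. Of the 100 named genes called, 32 kept their call in every one of the 26 alternative settings that read them. Among them were Gzmb, Klrg1, Ebi3, Entpd1, Lag3, Tnfrsf4, Tnfrsf9, Tnfrsf18, Ly6a, Tcf7, Lef1, Klf2, S1pr1, Bach2 and Aff3.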

How the data were processed

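RNA was measured by 5′ single-cell sequencing (10x Genomics HT kit) in 1 pool of live CD45+ cells, with 4 gene expression libraries and 1 hashtag library, per the labels' protocols. The authors deposited raw counts, UMIs per feature and cell, for which the submitters' processing notes name Cell Ranger 8.0.1 and the design text the reference mm10-1.2.0. Intron reads and strand settings are not given in the sources used here. Labels name the tags TotalSeq-C and the table TotalSeq-B.

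The table held 21624 barcodes and 27998 genes. The 93 barcodes under 200 genes or over 20% mitochondrial were removed, no barcode was under 500 UMIs, and 258 cells had no hashtag. Scrublet, with 8% doublets expected, marked 184 cells (0.855%) and no Treg, and none was removed. Treg UMIs were summed per hashtag. Deeper sums have narrower intervals. For the ratio of medians only, every hashtag count of 0 was set at a floor of 3 UMIs of that hashtag. Ratios of genes with a 0 in some hashtag, such as Aff3, can depend on it. Depth comparisons thinned each cell to 1500 UMIs. The calls were tested on simulated data, which were Poisson counts with known folds. These held no variation between cells or hashtags beyond the set folds and counting error. The simulation therefore cannot show how the calls behave where cells or hashtags vary. Python 3.11.15, numpy 2.4.6, scipy 1.17.1, pandas 2.3.3, scanpy 1.11.5 and matplotlib 3.10.9 were used.

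The members, the grouping of hashtags and the gene lists were chosen with earlier results of these data known. Named genes were the 15 largest ratios in each direction, each list member called, the 4 Treg markers and up to 4 uncalled members of each list by mean CPM. Myo10 and the families of the closing section were looked at after their values were seen. Positions are from GENCODE vM21 (GRCm38), matched by identifier for 293 of 293 genes. List genes without a row of that name, such as Ighm, were not analysed here, and some genes are not reported here. Alternatives changed the Treg rule, the hashtag limit, depth, scaling, level minimum and fold limit, and left out each hashtag in turn.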

Additional observations from a re-analysis of the deposited data

Results flagged for a closer look

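The table held a further set of 9 rows named multiplexing capture, which no comparison used. They held 37075235 UMIs in the kept cells, against 35034488 in the antibody capture rows that assigned the hashtags, and were singled out as signal in data outside the main measurement. In all 362 Tregs with a hashtag, the top tag was the same in both sets of rows.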

How the results depend on the processing

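No paired analysis was possible because the hashtags are in no labelled group. Against 387 higher and 318 lower genes, the count of lower genes was 153 with the rule applied to thinned cells, 139 with Tregs thinned to 1500 UMIs before summing, 182 at a mean CPM of at least 50, 526 at a fold limit of 1.5, 113 at a fold limit of 3 and 39 where 95% intervals were to lie apart. The count of higher genes was 207 at a fold limit of 3 and 86 with intervals apart. The last 3 limits and the higher CPM change the number by construction, and for thinning the cause was not tested. Leaving out 1 hashtag gave 401 to 529 higher and 309 to 491 lower genes. The 491 were without hashtag 1, and fewer hashtags are easier to separate by construction. Without hashtag 1, 283 of the 318 lower genes were called again, and without hashtag 7, 354 of the 387 higher ones. Size factors by median of ratios differed from the totals by factors of 0.956 to 1.03 and gave 412 higher and 303 lower genes.

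Requiring 2 Foxp3 UMIs, the Treg share was 1.36, 0.716, 0.906, 0.738, 0.796, 0.844, 0.486, 1.04 and 0.620% in hashtags 1 to 9. With the rule on thinned cells it was 1.34, 0.678, 0.860, 1.07, 0.534, 1.20, 0.379, 0.966 and 0.493% in hashtags 1 to 9. Both rules keep fewer cells by construction. A few list medians and genes changed sign. The helper CD4 median, of 4 genes, was -0.27 and became 0.76 with 2 Foxp3 UMIs, 0.28 without cells of over 2 UMIs of other cell types, 0.25 with thinned sums, 0.39 with no minimum level and 0.25 without hashtag 7, the highest of -0.30 to 0.25 with 1 hashtag left out. The TNF family median became -0.022 without Tregs that had Mki67 or Top2a. Alox5ap became -0.024 with the rule on thinned cells, Hmgb2 0.92 with that rule and 0.020 without Tregs that had Mki67 or Top2a, and Apoe -0.25 as a mean of per-cell CPM and -0.78 with thinned sums. The cause was not tested. Of 100 named genes called, 32 kept the call in every one of the 26 settings that read them and 68 lost it in at least 1. Nckap5 and Phf11a, among the 32, were not read in all 26. Leaving out Scrublet doublets, which removed no Treg, could not change a call. An alternative chosen after seeing the data, leaving out Tregs with over 10 UMIs of other cell types, gave 384 higher and 295 lower genes. Depth limits genes with a few UMIs in the smaller sums, hashtag 7 above all.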

Other observations

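Genes outside the lists are given here by families, which were looked at after the values of all genes were seen and have no test. Of 12 genes of MHC class I presentation read, 8 were higher in the Tregs of hashtags 1, 4 and 7 (H2-D1, H2-K1, H2-M3, H2-T22, H2-T23, Tap1, Tap2 and Tapbp), none was lower, and the median log2 ratio was 1.14. H2-K1 and H2-D1 encode the molecules that show peptides to CD8 T cells, and the H2 genes are near-identical copies between which reads may be split. H2-K1 was at 7495, 6291 and 4729 CPM in hashtags 1, 4 and 7, and its ratio of medians was 2.16. Tap1, a subunit of the pump that loads peptides, was at 584, 522 and 554 CPM, a ratio of 2.43. The family's share of all Treg UMIs was 2.65, 2.44 and 1.84% in hashtags 1, 4 and 7 and 0.879 to 1.35% in the others.

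Of 81 ribosomal protein genes read, 22 were lower, none was higher and 80 had a log2 ratio below 0. Together they held 11.4, 9.90 and 13.4% of the Treg UMIs in hashtags 1, 4 and 7 and 17.7 to 21.9% in the others. Of 12 mitochondrially encoded genes read, 5 were lower and none higher.

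Myo10, which encodes a motor protein of filopodia, was at 128, 101 and 111 CPM in the Tregs of hashtags 1, 4 and 7, a ratio of medians of 9.42. In Foxp3-negative CD4 T cells, without cells of over 2 UMIs of B cell, macrophage and monocyte markers, Myo10 had a ratio of 2.08. This filter was not applied to these Tregs. In CD8 T cells filtered likewise the ratio of Myo10 was 59.6.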
